A study of Arabidopsis thaliana with 24 samples.

Results

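Seedlings of 2 Arabidopsis thaliana lines that overexpress the endoribonuclease gene DNE1 were compared with wild-type seedlings. The comparison takes its 9 libraries by their labels from 24 in the series: 3 of the overexpressor OE1, 3 of the overexpressor OE2 and 3 of wild-type Col-0 (WT). Both overexpressors carry a GFP fusion of DNE1 driven by the 35S promoter of cauliflower mosaic virus, which is active in most plant tissues, and the labels give the lines as T3_2 with the suffix GFP_D and T3_5 with the suffix GFP_I. All plants were 14 days old and of the Col-0 accession, and each group has 1 library in each of batches 1 to 3, labelled 2018. Whether the endogenous DNE1 gene of these lines is intact is not given in the sources used here. A further 3 libraries of the same batches, from the mutant dne1 (Salk132521), share the fit and are quoted where a gene's level in them bears on a result. The other libraries, from batches labelled 2019, are not used here.

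DNE1 encodes a protein with a NYN endonuclease domain that associates with DCP1, a partner of the decapping enzyme. Decapping removes the cap from messenger RNA so that the exonuclease XRN4 can degrade the body of the transcript, and VARICOSE (VCS) is the scaffold that holds the decapping proteins together. The comparison asks which transcripts differ in abundance when DNE1 is made in excess. A library of whole seedlings averages over all organs, so fewer cells of a type and less RNA per cell cannot be told apart. Reads of the endogenous gene and of the transgene cannot be told apart either.

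Messenger RNA libraries held 36714564 to 70561391 reads, and levels below are read counts divided by the size factor of the library. The first principal component took 31.2% of the variance and set the 4 libraries of batch 3 apart from the others, so batch was kept as a block in every test. A change is the mean of OE1 and OE2 minus WT on the scale log2 (normalized count + 1), given ± SE, which understates the change of genes with low counts. A gene was called at an adjusted p under 0.05, and every adjusted p comes from limma, adjusted by Benjamini-Hochberg across the 21631 genes that entered the test. The replicates are called biological in the series' own description, with no more on how plants were grown, so a p-value speaks only of the spread among these libraries.

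DNE1 (AT2G15560) was examined first because it checks the labels. It had 20494, 19553 and 23636 normalized counts in OE1 and 21603, 17739 and 20599 in OE2, against 1294, 1545 and 1548 in WT. All 6 overexpressor libraries lay far above all 3 WT libraries, and the lines overlapped each other. The change was 3.82 ± 0.10, a 14.1-fold higher level (adjusted p = 2.8e-08), with 4.02, 3.59 and 3.83 within batches 1, 2 and 3. OE1 against OE2 differed by 0.09 ± 0.11. Per kilobase of the longest annotated transcript, DNE1 averaged 9614 normalized counts in OE1 and 9049 in OE2, against 662 in WT, while DCP1 averaged 1162 in OE1, 1124 in OE2 and 1124 in WT. DNE1 transcript per length was therefore above that of its partner in both lines and below it in WT.

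**Figure D1:**
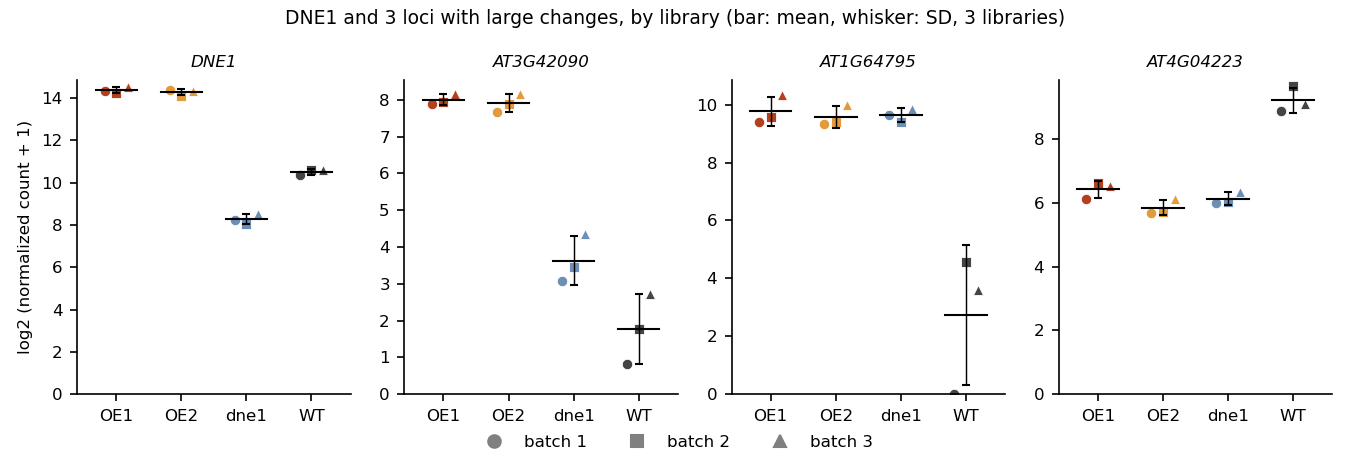
Log2 (normalized count + 1) of DNE1, AT3G42090, AT1G64795 and AT4G04223 in OE1, OE2, dne1 and WT, with 1 point per library, its shape giving the batch; bars are means and whiskers SD over 3 libraries. DNE1 and AT3G42090 are high in OE1 and OE2 alone, whereas AT1G64795 and AT4G04223 lie in dne1 at about the level of the overexpressors.

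Overexpression was accompanied mainly by higher transcript levels. Of the genes tested 534 were called (2.47%), 432 of them higher (2.00%) and 102 lower (0.472%), and the median change of all genes was -0.01. The 432 rises had a median of 0.96, and 202 of them were at least 1 and 73 at least 2. The 102 falls were smaller, with a median of -0.62, and 21 reached a size of 1 and 7 a size of 2. Genes that rose were of lower abundance, with a median level of 374 normalized counts, while those that fell had 1991 and all tested genes 607. Direction was shared by all 6 same-batch pairs of an overexpressor and a WT library for 528 of the 534 genes. These genes were called from the same libraries and the pairs share 3 WT libraries, so this is no independent evidence.

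Each line gave fewer calls when set against WT by itself. In OE1 268 genes were called (1.24%), of which 222 rose and 46 fell. In OE2 it was 253 (1.17%), of which 212 rose and 41 fell. These comparisons share the same 3 WT libraries, so their values are given side by side below and no overlap is drawn from them. The count for both lines together depended on single libraries: it was 139, 331 and 127 without the WT library of batch 1, 2 or 3, 309 without OE1 of batch 1 and 342 without OE2 of batch 3. Without the batch block it was 79.

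Among the largest changes were loci of unknown function, and some of these did not follow the DNE1 level. AT3G42090, annotated as a pseudogene, had 235, 245 and 287 normalized counts in OE1 and 204, 236 and 284 in OE2, against 0.767, 2.42 and 5.61 in WT. The groups were far apart, and dne1 lay close to WT at 7.4, 9.97 and 19.6. Its change of 6.18 ± 0.26 (adjusted p = 2.3e-06) was of like size in OE1 (6.23) and OE2 (6.13).

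AT1G64795 had 678, 753 and 1292 normalized counts in OE1 and 639, 674 and 1023 in OE2, against 0, 22.96 and 11.2 in WT. This rise of 6.94 ± 0.64 (adjusted p = 0.0011) was the largest of the 432, but dne1 stood at 807, 669.6 and 929.6. The pseudogene AT5G35935 had a similar distribution, with 1703 to 2739 in the 6 overexpressor libraries and 1962 to 2414 in dne1, against 68.9 to 427 in WT. It rose by 3.35 ± 0.39 (adjusted p = 0.0029).

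The noncoding RNA AT4G04223 had 68.4, 98.1 and 91.5 normalized counts in OE1 and 50.4, 52.0 and 68.1 in OE2, against 472, 803 and 546 in WT. This was the largest fall named by the rule (-3.08 ± 0.17, adjusted p = 1.9e-05), and dne1 was as low, at 63.4, 64.3 and 80.8. For AT1G64795, AT5G35935 and AT4G04223, then, it was the WT libraries that stood apart from the other 9. Of the 31-base words of AT4G04223, 50.1% also occur in other transcripts, and AT1G64795 overlaps AT1G64790 on the opposite strand, so the values of both are uncertain.

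Receptor-like proteins held the most calls of the 24 gene lists examined. These cell-surface proteins have extracellular leucine-rich repeats and a membrane anchor but no kinase domain, and some of them detect fragments of microbes. Of 50 genes annotated as receptor-like proteins 46 were tested, 12 rose and 0 fell, beside 2.00% of all genes called higher. Their median change was 0.63, and 43 of the 46 lay above 0. Set against WT by itself, each line had 9 of the 46 called higher, beside 1.03% of all genes in OE1 and 0.980% in OE2. The family was defined by annotation after earlier results of these data were known, so its count describes these libraries and is no independent evidence.

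RLP23 (AT2G32680), the receptor for a peptide found in many bacterial, fungal and oomycete toxins, had 405, 136 and 112 normalized counts in OE1 and 456, 310.5 and 187 in OE2, against 11.5, 30.2 and 6.73 in WT. The lowest overexpressor library held more than the highest WT library, and batch 1 was the highest in both lines. RLP23 rose by 4.02 ± 0.49 (adjusted p = 0.0031), or 16.3-fold. It overlaps AT2G32670 on the opposite strand, and whether reads were counted by strand is not given, so its value is uncertain.

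RLP42 (AT3G25020), which detects fungal endopolygalacturonases, had 844, 645 and 605 normalized counts in OE1 and 756, 640.5 and 569.7 in OE2, against 353, 309 and 301 in WT. The groups did not overlap and the libraries of a line lay close together. Its change was 1.06 ± 0.13 (adjusted p = 0.0035), and RLP41 (AT3G25010) rose by 2.73 ± 0.34 (adjusted p = 0.0039). RLP42 shares 45.1% and RLP41 30.6% of their 31-base words with other transcripts, and RLP41 overlaps AT3G25012 on the opposite strand, so both values are uncertain.

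RLP6 (AT1G45616) had 116, 128 and 236 normalized counts in OE1 and 103, 134 and 215 in OE2, against 19.95, 44.7 and 79.6 in WT. No overexpressor library was as low as the highest WT library, and batch 3 was highest in every group. It rose by 1.80 ± 0.21 (adjusted p = 0.0029), with 2.39, 1.53 and 1.49 within batches 1, 2 and 3. Its sequence shares nothing with other transcripts and no overlapping gene is annotated.

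The other called members are outside the rule for named genes and are given because they complete the count. RLP43 rose by 3.66 ± 0.46, RLP28 by 2.27 ± 0.49, RLP19 by 1.24 ± 0.21 and RLP50 by 1.12 ± 0.22. Smaller rises were those of RLP46 (0.86 ± 0.12), RLP47 (0.73 ± 0.12) and RLP29 (0.61 ± 0.14), of which RLP47 shares 26.8% of its words with other transcripts and overlaps AT4G13800 on its own strand, and RLP46 and RLP50 have a gene on the opposite strand. RLP20 was read 2 times in all WT libraries together, and no fold is given for it; it had 11.2 to 20.1 normalized counts in OE1 and 12.1 to 26.8 in OE2, against 0, 2.42 and 0 in WT. In dne1 RLP46 had 190, 223 and 143 normalized counts, against 137, 147 and 85.2 in WT. RLP47 had 772, 1211 and 1109 in dne1, against 683, 788 and 948 in WT. Members that missed the threshold also included large values, such as RLP7 (1.66 ± 0.44, adjusted p = 0.088).

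The summed level of all 50 genes was 23160.4 to 27902 in OE1 and 23413 to 25796 in OE2, against 17357 to 21822 in WT. The sums of the overexpressors thus lay above those of WT, though by less than the changes of RLP23 or RLP43, which are genes of low abundance. In dne1 the sums were 21681, 17876 and 23642, above WT and below both overexpressors in every batch. Across batches, dne1 of batch 3 overlapped the overexpressors. The count of 12 fell to 5 without the batch block, to 6 without the WT library of batch 1 and to 5 without that of batch 3. The call of RLP50 was lost in 7, and the calls of RLP28 and RLP29 were each lost in 8, of the 9 fits without a single library.

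**Figure D2:**
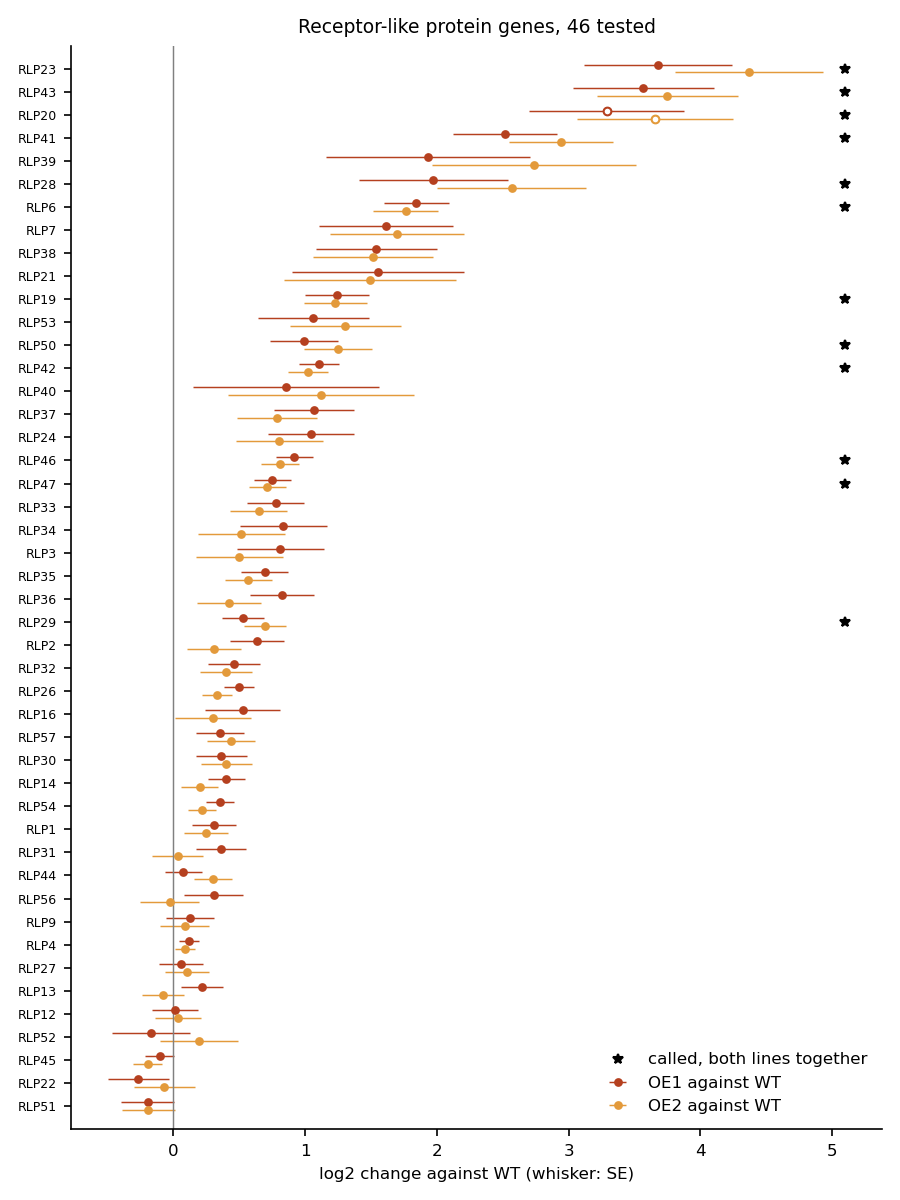
Log2 change of 46 receptor-like protein genes in OE1 (red) and OE2 (orange), each against the same 3 WT libraries, with whiskers of 1 SE; stars mark the 12 genes called for both lines together, and open circles RLP20, with 2 WT reads. RLP23 lies at the top with 3.68 in OE1 and 4.37 in OE2, and 43 genes lie above 0 for the mean of the lines.

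Cysteine-rich receptor-like kinases (CRKs), which carry a kinase domain inside the cell and cysteine-rich repeats outside it, also rose where they were called. Of 39 such genes 33 were tested, 6 rose and 0 fell, beside 2.00% of all genes called higher, and the median was 0.35. The summed level of the family did not follow: it was 22516, 15644 and 15846 in OE1 and 14898, 13994 and 17108 in OE2, against 16878, 14549 and 24822 in WT, so OE2 lay below WT in every batch. CRK23 (AT4G23310) had 87.4, 52.7 and 49.7 normalized counts in OE1 and 67.5, 57.7 and 62.8 in OE2, against 0.767, 8.46 and 1.12 in WT. Nothing in WT came near the level of the overexpressors, and the change was 4.26 ± 0.49 (adjusted p = 0.0026).

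CRK6 (AT4G23140) had 151, 57.6 and 27.3 normalized counts in OE1 and 122, 88.6 and 50.3 in OE2, against 6.91, 7.25 and 2.24 in WT. It rose by 3.60 ± 0.34 (adjusted p = 0.0011), though 31.7% of its 31-base words occur elsewhere. CRK5 (AT4G23130), the next gene on the chromosome, rose by 1.85 ± 0.30 (adjusted p = 0.012). In dne1 CRK5 had 58.2, 36.2 and 76.5 normalized counts, above WT in every batch and above both overexpressors in batch 3. CRK21 (AT4G23290) rose by 0.60 ± 0.12 (adjusted p = 0.03), and here the groups overlapped, because WT of batch 3 had 2646 normalized counts and the overexpressors 1563 to 3527. CRK8 (1.77 ± 0.38) and CRK18 (0.44 ± 0.09), outside the rule for named genes, complete the 6, and CRK8 shares more than 20% of its words with other transcripts. Not all CRKs lay higher: CRK10 had a change of -0.82 ± 0.34 (adjusted p = 0.25), though AT4G23190 overlaps it on the opposite strand. The count was 3 without the batch block, 2 without the WT library of batch 1, and 3 without OE1 of batch 1 or 2, OE2 of batch 2, or WT of batch 2 or 3.

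Salicylic acid is the hormone of defence against biotrophic pathogens. Of 17 genes of its synthesis and response 3 rose and 0 fell, beside 2.00% of all genes called higher, and the median was 0.11. The summed level of the list went the other way. It was 10252, 15590 and 3410 in OE1 and 14947, 7460 and 7083 in OE2, against 16947, 17869 and 10337 in WT. Both lines thus lay below WT in every batch. In dne1 the sums were 9364, 12683 and 14541. PR2 (AT3G57260), a secreted glucanase and classical marker of the response, had 1318, 338 and 204 normalized counts in OE1 and 1126, 1068 and 324 in OE2, against 23.8, 145 and 5.61 in WT. Every overexpressor library exceeded every WT library, but the levels were uneven: WT of batch 2 held more than the other WT libraries, and the change was 5.62, 2.04 and 5.29 within batches 1, 2 and 3. Over all libraries it was 4.32 ± 0.68 (adjusted p = 0.01).

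PR5 (AT1G75040), a thaumatin-like protein, had 725, 347 and 247 normalized counts in OE1 and 591, 402 and 140.3 in OE2, against 199, 219 and 52.7 in WT. The groups overlapped across batches but not within them, and the change was 1.43 ± 0.27 (adjusted p = 0.026). ICS1 (AT1G74710), the isochorismate synthase that makes the hormone's precursor, rose by 0.58 ± 0.11 (adjusted p = 0.029). PR1, the best known marker of the response, ranged from 2.09 to 146 in the overexpressors and from 0 to 10.9 in WT and was not called (adjusted p = 0.35).

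The remaining members lay on both sides of 0 and were not called; 11 of the 17 genes were above 0 and 6 below. The transcription factor gene WRKY70 had a change of -1.45 ± 0.62 (adjusted p = 0.27) and CBP60G of -1.11 ± 0.44 (adjusted p = 0.23), while PAD4 had 0.16 (adjusted p = 0.75) and EDS1 0.01 (adjusted p = 0.98). These 4 were chosen after their values were seen. WRKY70 was lowest, at 745 normalized counts, in OE1 of batch 3, against 7349 to 13159 in WT. The count of 3 for the list was 0 without the batch block, 0 without the WT library of batch 1 and 0 without that of batch 3, 1 without OE1 of batch 1 or 3, and 2 without any other library, so it depended on single libraries. The call of PR2 was lost in 2 of the 9 fits without a single library, that of PR5 in 6 and that of ICS1 in 7.

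**Figure D3:**
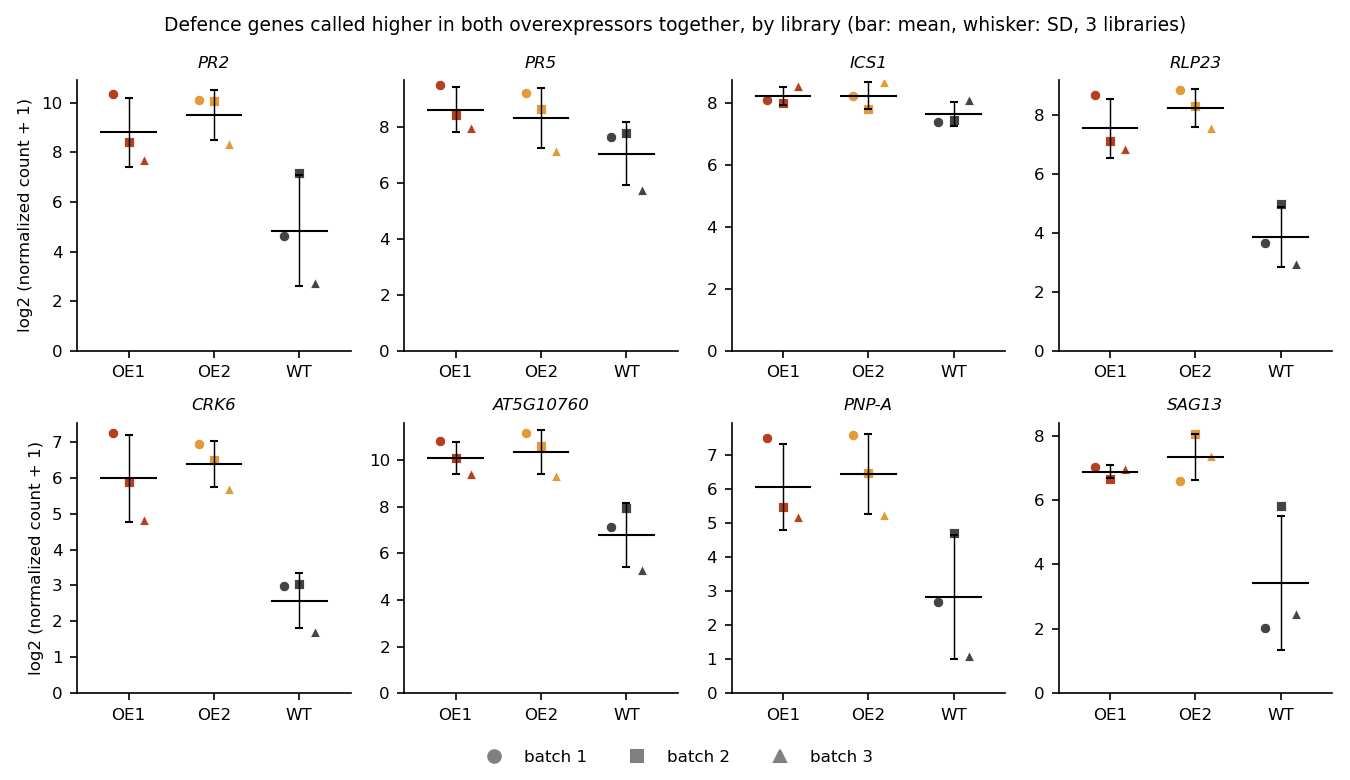
Log2 (normalized count + 1) of 8 defence-related genes that were called higher, in OE1, OE2 and WT, with 1 point per library, its shape giving the batch; bars are means and whiskers SD over 3 libraries. PR2, RLP23, CRK6 and AT5G10760 show no overlap between overexpressors and WT, while PR5 and ICS1 overlap across batches.

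Several other genes among the largest rises had low WT levels. AT5G10760, annotated as an aspartyl protease, had 1784, 1086 and 682 normalized counts in OE1 and 2261, 1570.3 and 637 in OE2, against 139.7, 248 and 38.1 in WT. Its change of 3.44 ± 0.30 (adjusted p = 0.00073) kept its call when any library was left out. SAG13 (AT2G29350), a gene used as a marker of senescence and cell death, ranged from 95.7 to 263 in the overexpressors and was at 3.07, 55.6 and 4.49 in WT (3.68 ± 0.81, adjusted p = 0.045).

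PNP-A (AT2G18660), a secreted peptide of the natriuretic type, rose by 3.42 ± 0.63 (adjusted p = 0.021), and PCR1 (AT1G14880), a small membrane protein of heavy metal resistance, by 3.73 ± 0.58 (adjusted p = 0.0093). Like PR2, these 2 genes and SAG13 had their highest WT value in batch 2, with 25.4 for PNP-A and 38.7 for PCR1. The call of SAG13 was lost in 7 of the 9 fits without a single library. SAG13 stood at 151 in dne1 of batch 3, inside the range of the overexpressors.

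WRKY transcription factors, many of which act in immunity, moved as single genes. Of 58 tested, 5 rose and 0 fell, beside 2.00% of all genes called higher, and the family's median was -0.11. Of the 58 genes 20 lay above 0 and 38 below. The summed level of the family was 33852, 40158 and 24681 in OE1 and 39054, 28086 and 32741 in OE2, against 45787, 40903 and 47526.5 in WT. Both lines thus lay below WT in every batch, and dne1 had 32246, 37256 and 48873. The count of 5 was 1 without the batch block, 1 without the WT library of batch 1, 1 without that of batch 3 and 3 without that of batch 2. WRKY30 (AT5G24110) had 35.2, 29.2 and 30.5 normalized counts in OE1 and 49.4, 48.0 and 40.8 in OE2, against 8.44, 9.67 and 14.6 in WT. The groups were clearly apart, and the change was 1.75 ± 0.25 (adjusted p = 0.0071). WRKY60 (AT2G25000) rose by 1.14 ± 0.17, WRKY45 (AT3G01970) by 1.00 ± 0.15 and WRKY57 (AT1G69310) by 0.65 ± 0.11. The fifth, WRKY26, rose by 0.90 ± 0.20 and is outside the rule for named genes. Of 127 intracellular receptors of the NBS-LRR class, 1 rose and 0 fell, beside 2.00% of all genes called higher, and the median was -0.07. That gene was AT5G46260 (0.67 ± 0.14, adjusted p = 0.037), of which 29.5% of the 31-base words occur elsewhere and whose call was lost in 8 of the 9 fits without a single library.

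Of the 7 called falls of size 2 or more, AT4G04223 was the 1 that met the rule for named genes, which asks for a mean of at least 1 CPM and the same direction in all 6 pairs. The next falls by that rule were of protein-coding genes. AT5G11330, annotated as an FAD/NAD(P)-binding oxidoreductase, had 978, 1119.9 and 1157 normalized counts in OE1 and 690.3, 1165 and 1137 in OE2, against 2854, 2731 and 3091 in WT. The 6 overexpressor libraries all lay well below WT. It fell by 1.49 on the log2 scale (SE 0.15, adjusted p = 0.0018). In dne1 AT5G11330 had 1086, 2205 and 1838, also below WT in every batch.

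ESE3 (AT5G25190), an ethylene response factor, had 199, 206 and 213 normalized counts in OE1 and 288, 78.8 and 315 in OE2, against 789, 453 and 905 in WT. No overexpressor library reached the lowest WT library. Its change was -1.78 ± 0.30 (adjusted p = 0.015). In dne1 ESE3 had 272, 196 and 674, also below WT in every batch. The bHLH gene AT5G50915 changed by -1.43 ± 0.26 (adjusted p = 0.018), with 387 to 962 in the overexpressors and 998 to 2838 in WT.

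AT4G15660, of the thioredoxin superfamily, changed by -1.68 ± 0.33 (adjusted p = 0.027), and the peroxidase gene AT5G47000 by -1.37 ± 0.22 (adjusted p = 0.012). AT1G19530 changed by -1.16 ± 0.21 (adjusted p = 0.018). AT2G16660, a transporter of the major facilitator superfamily, changed by -1.05 ± 0.22 (adjusted p = 0.036), and its level followed the batch, with 4632 in OE1 and 3167 in OE2 of batch 1, against 11088 in WT of that batch. The calls of AT4G15660 and AT2G16660 were lost in 6 and 7 of the 9 fits without a single library. IMS2 (AT5G23020), an enzyme of the chain elongation of aliphatic glucosinolates, had 463.7 to 568 in OE1 and 642 to 711 in OE2, against 888 to 1277 in WT. Its change was -0.76 ± 0.12 (adjusted p = 0.011). IMS2 was the 1 member of 20 called in the glucosinolate list, whose median was 0.27, beside 0.472% of all genes called lower.

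The machinery of RNA decay was examined because DNE1 acts in it. None of 14 decapping and 5'-3' decay genes was called, and their median was 0.09. VCS (AT3G13300) had 6301, 5799.6 and 4985 normalized counts in OE1 and 6067, 6543 and 5398 in OE2, against 6965, 5898 and 6281 in WT. The groups overlapped and the change was -0.13 ± 0.09 (adjusted p = 0.51). The helicase gene RH12 (AT3G61240) had the smallest p of the list, with a change of 0.18 ± 0.07 (adjusted p = 0.23).

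SOV (AT1G77680) was the exception among the decay factors. It encodes a 3'-5' exoribonuclease named as a suppressor of varicose. SOV had 1469.5, 1429.6 and 1314 normalized counts in OE1 and 1611, 1703 and 1211 in OE2, against 1001, 961 and 873 in WT. All overexpressor libraries lay above all WT libraries. In dne1 SOV had 1218, 1235 and 1057, between the overexpressors and WT within each batch but overlapping the overexpressors across batches. The change was 0.62 ± 0.08 (adjusted p = 0.005), with 0.57 ± 0.09 in OE1 and 0.66 ± 0.09 in OE2. SOV was the 1 gene of 19 called in the list of deadenylation, exosome and nonsense-mediated decay. That list's median was -0.05, and 2.00% of all genes were called higher. Of 16 small RNA genes 0 were called, and RDR6, an RNA-dependent RNA polymerase, had the smallest p (-0.28 ± 0.09, adjusted p = 0.14).

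Stress-response lists held a few called genes each. Of 20 genes of abscisic acid, cold and drought 2 rose, beside 2.00% of all genes called higher, around a median of 0.23. KIN1 (AT5G15960), a small protein induced by cold and abscisic acid, had 1385, 2228 and 987 normalized counts in OE1 and 1484, 2065 and 973 in OE2, against 378, 702 and 338 in WT. The lines were nearly equal in each batch and lay above WT throughout (1.69 ± 0.19, adjusted p = 0.0026). In dne1 KIN1 had 658, 1137 and 1094, above WT in every batch and above both overexpressors in batch 3. RD29B (AT5G52300), an abscisic acid marker, rose by 1.51 ± 0.20 (adjusted p = 0.005). In dne1 RD29B had 75.1, 199 and 407, against 52.2, 94.3 and 172 in WT, and in batch 3 dne1 lay above OE1 (316).

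Among 16 heat shock genes tested, HSP17.6A (AT5G12030) rose by 2.29 ± 0.45 (adjusted p = 0.03) and HSP26.5 (AT1G52560) by 1.23 ± 0.25 (adjusted p = 0.031), and the median was 0.49. Each of these calls was lost in 7 of the 9 fits without a single library, and the list had 0 calls without the batch block. HSP17.6A was low in every library, at 25.1 to 97.4 in the overexpressors and 4.49 to 20.5 in WT. In the jasmonate list, 1 of 13 rose: CORI3 (AT4G23600), a gene of the tyrosine transaminase family induced by coronatine, changed by 0.80 ± 0.16 (adjusted p = 0.03), a call lost in 6 of the 9 fits without a single library. In dne1 CORI3 had 6639, 14487 and 7784 normalized counts, against 5440, 10197 and 3225 in WT. The counts of the heat shock, jasmonate and phosphate lists stand beside 2.00% of all genes called higher. In the phosphate starvation list 1 of 14 rose around a median of 0.56. This was AT4 (AT5G03545), whose transcript can sequester miR399, with 232 to 297 in the overexpressors, against 86.0, 205 and 39.3 in WT (1.58 ± 0.36, adjusted p = 0.049). The call of AT4 was lost in 8 of 9 fits without a single library.

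Growth and development genes showed small shifts. All 20 cell cycle genes had a change above 0, with a median of 0.21, but the medians within batches 1, 2 and 3 were 0.24, -0.10 and 0.40. In batch 2 their summed level was 25365 in OE1 and 26823 in OE2, against 27336 in WT, so the shift did not hold in that batch. CDKB2;1 (AT1G76540), a kinase of mitosis, was the 1 gene called, beside 2.00% of all genes called higher. CDKB2;1 lost its call in 3 of the 9 fits without a single library. It had 2312, 2515 and 2201 normalized counts in OE1 and 2441, 2529 and 2235 in OE2, against 1872, 1934 and 1434 in WT. The change was 0.45 ± 0.08 (adjusted p = 0.019), and an opposite-strand gene, AT1G76530, makes the value uncertain. Of 11 meristem and organ boundary genes 0 were called, and CUC1 (AT3G15170), which sets boundaries between organs, came closest (1.00 ± 0.25, adjusted p = 0.076).

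In the flowering list 2 of 20 rose, beside 2.00% of all genes called higher, around a median of 0.36. Of the 20 genes 14 lay above 0 and 6 below. The count was 0 without the batch block and 0 without the WT library of batch 1 or batch 3. SEP3 (AT1G24260), a MADS-domain factor of floral organ identity, had 185, 195 and 389.9 normalized counts in OE1 and 202, 163 and 372 in OE2, against 66.8, 60.4 and 177 in WT. Within each batch both lines lay above WT, with changes of 1.52, 1.54 and 1.099 in batches 1, 2 and 3 (1.39 ± 0.21 in all, adjusted p = 0.0093). FT (AT1G65480), the mobile signal that induces flowering, rose by 1.19 ± 0.27 (adjusted p = 0.049), with 115 to 176 in the overexpressors and 50.6 to 88.2 in WT. The call of FT was also lost in 8 of 9 fits without a single library.

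**Figure D4:**
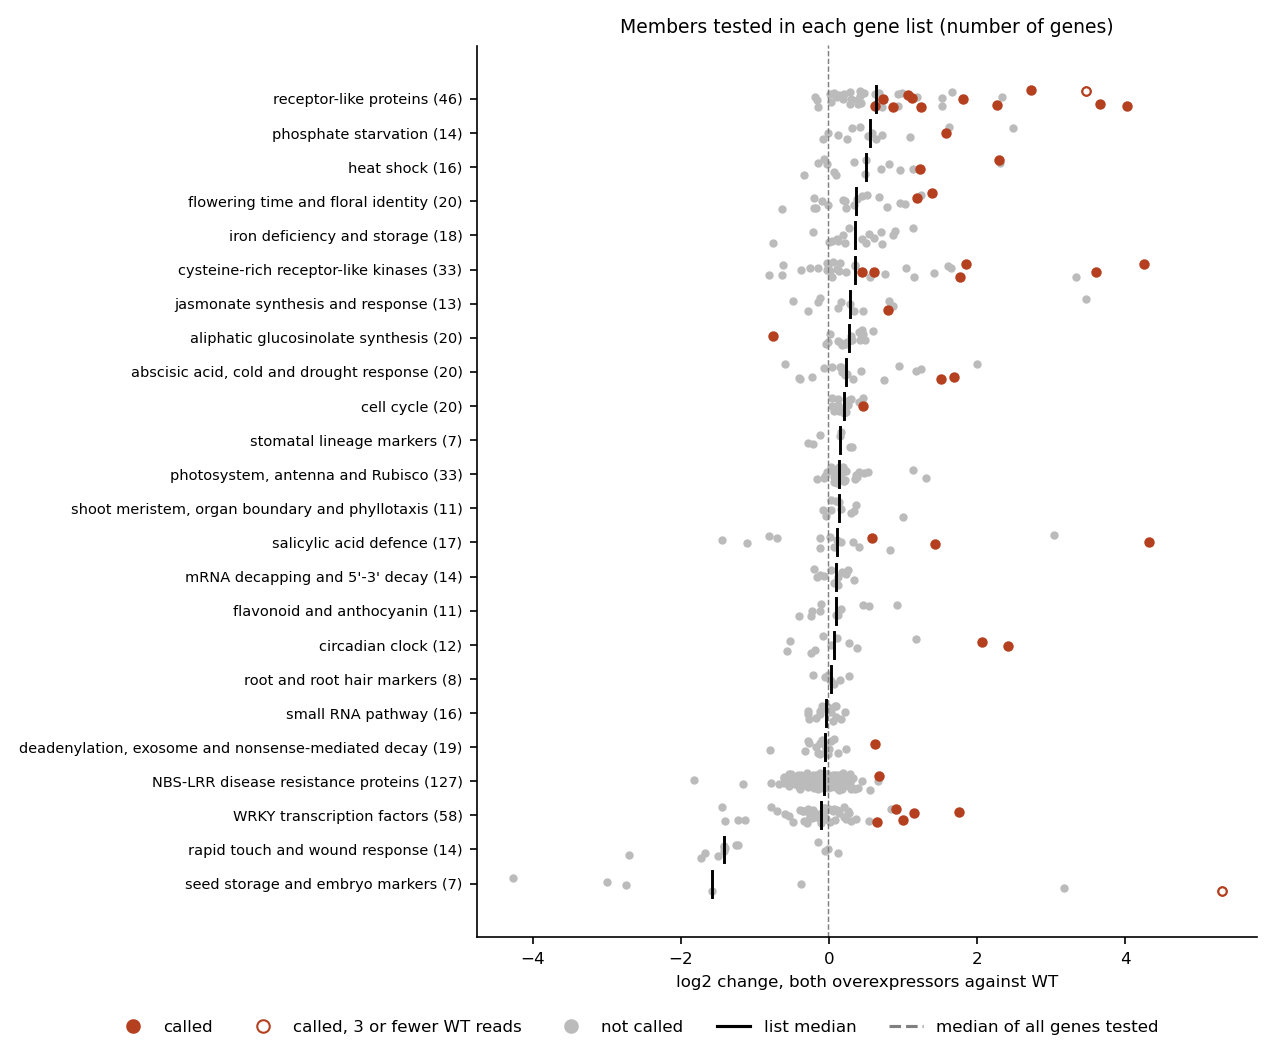
Log2 change of both overexpressors against WT for every tested member of 24 gene lists, with called genes in red (open where WT held 3 or fewer reads), other genes in grey, a black line at the median of the list and a dashed line at the median of all genes tested. Receptor-like proteins have the highest median at 0.63, and the touch and seed lists the lowest at -1.41 and -1.58.

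Clock genes have to be read within batches. CCA1 (AT2G46830), a MYB factor that peaks at dawn, had 197, 134 and 1386 normalized counts in OE1 and 275, 178 and 1036 in OE2, against 66.0, 20.5 and 414 in WT. Batch 3 was highest in every group, so overexpressors of batches 1 and 2 lay below WT of batch 3, yet within each batch both lines exceeded WT. The change was 1.80, 2.85 and 1.53 within batches 1, 2 and 3 and 2.06 ± 0.23 in all (adjusted p = 0.0026). PRR9 (AT2G46790), a morning-phase repressor, rose by 2.42 ± 0.41 (adjusted p = 0.014) with the same dependence on batch, and 32.5% of its 31-base words occur elsewhere. PRR9 had 8.04, 11.4 and 241 normalized counts in OE1 and 33.3, 31.7 and 171 in OE2, against 2.30, 1.21 and 63.9 in WT. WT of batches 1 and 2 was thus near the floor. Set against WT by itself, PRR9 was called in OE2 (adjusted p = 0.019) but not in OE1 (adjusted p = 0.093). The list's median was 0.07, and LHY, the close relative of CCA1, had 0.27 ± 0.32 (adjusted p = 0.73).

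**Figure D5:**
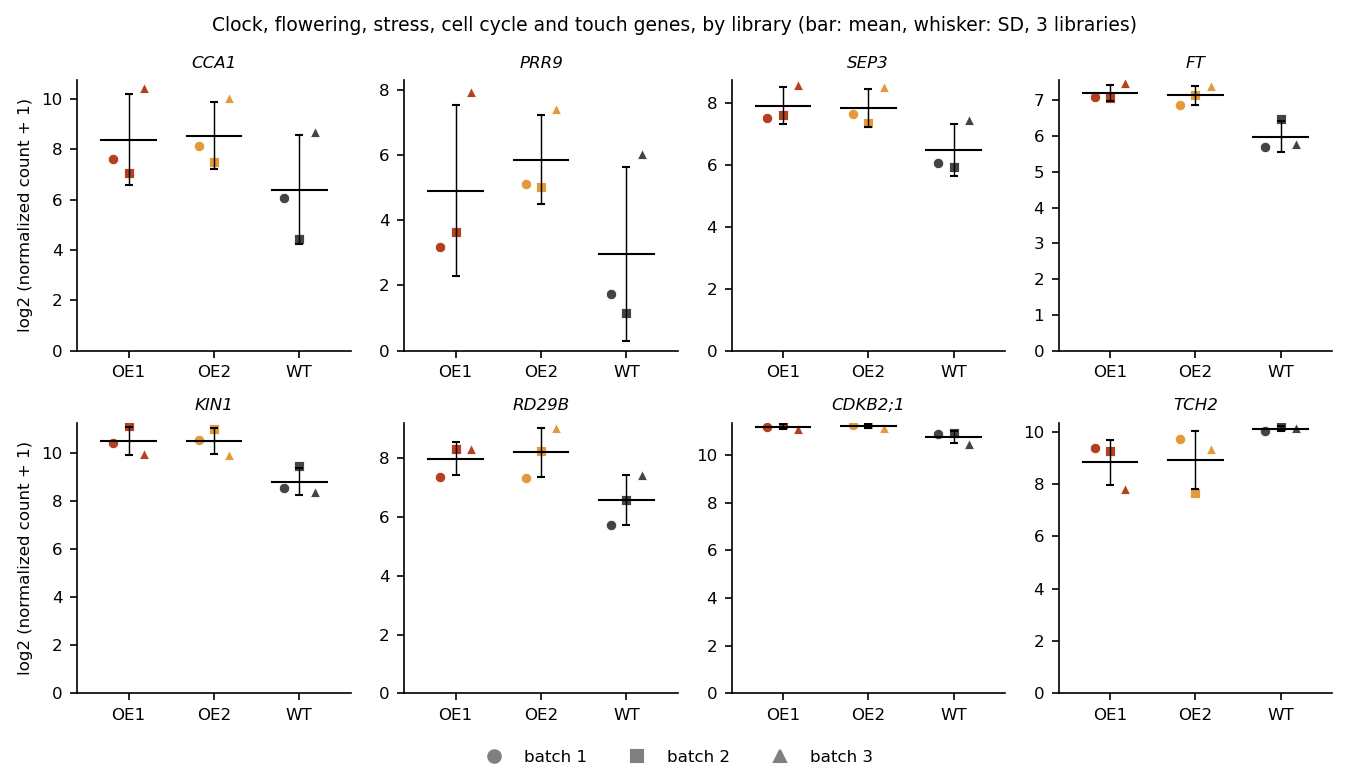
Log2 (normalized count + 1) of CCA1, PRR9, SEP3, FT, KIN1, RD29B, CDKB2;1 and TCH2 in OE1, OE2 and WT, with 1 point per library, its shape giving the batch; bars are means and whiskers SD over 3 libraries. In CCA1 and PRR9 batch 3 (triangles) is highest in every group, and in TCH2 OE1 of batch 3 and OE2 of batch 2 are lowest.

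Genes of the rapid response to touch and wounding had a low median of -1.41 with 0 of 14 called. The size of this shift depended on single libraries, and the summed level of the list was 25434, 18575 and 3565 in OE1 and 23795, 2885 and 20207 in OE2, against 48653, 28837 and 51050 in WT. OE1 of batch 3 and OE2 of batch 2 held far less than the other overexpressor libraries, and all 6 lay below WT of the same batch. The median was -0.85 without OE1 of batch 3 and -0.89 without OE2 of batch 2. In dne1 the summed level was 22894.5, 11571 and 62557, below WT in batches 1 and 2 and above it in batch 3. In batch 1 dne1 lay below both overexpressors as well. TCH2 (AT5G37770), a calmodulin-like protein, had 667, 615 and 225 in OE1 and 852, 201 and 642 in OE2, against 1029.9, 1174 and 1128 in WT (-1.25 ± 0.42, adjusted p = 0.17). TCH2 overlaps AT5G37760 on the opposite strand.

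Photosynthesis, iron and flavonoid genes gave no calls. The medians were 0.14 for 33 photosystem, antenna and Rubisco genes, 0.36 for 18 iron genes and 0.09 for 11 flavonoid genes. LHCB2.1 (AT2G05100), an antenna protein of photosystem II, ranged from 28376 to 161041 in the overexpressors and from 8519 to 133799 in WT, with a change of 1.14 ± 0.28 (adjusted p = 0.064). Its batches differed more than its groups, and 31.8% of its words occur elsewhere. NAS4 (AT1G56430), a nicotianamine synthase of iron transport, had 0.60 ± 0.22 (adjusted p = 0.19), and the flavonoid hydroxylase gene TT7 (AT5G07990) had -0.41 ± 0.15 (adjusted p = 0.2).

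Markers of organs were measured to see whether the seedlings differed in makeup. None of 8 root and root hair markers was called, and their summed level was 1983 to 2420 in OE1 and 2056 to 2585 in OE2, against 1834 to 2983 in WT. None of 7 stomatal lineage markers was called, with sums of 2395 to 2837 in OE1 and 2181 to 2889 in OE2, against 2320 to 2574 in WT. Of 12 seed and embryo markers, 7 passed the filter on low values and the median was -1.58. The cruciferin gene CRA1 had 5.03, 6.49 and 11.2 normalized counts in OE1 and 16.1, 992 and 9.43 in OE2, against 235, 1027 and 295 in WT (-4.28 ± 1.05, adjusted p = 0.064).

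The storage albumin gene SESA2 (AT4G27150) was the 1 called member of the seed list, in which 2 genes lay above 0 and 5 below. It had 8.04, 134 and 54.6 normalized counts in OE1 and 183, 55.3 and 80.6 in OE2, against 0.767, 1.21 and 0 in WT (adjusted p = 0.0068). WT held only 2 reads of it, so no fold is given. SESA5, another storage albumin, was the other gene above 0 and was not called (adjusted p = 0.095), and SESA1, SESA3 and SESA4 did not pass the filter. The part of seed residue in these values was not tested.

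OE1 and OE2 differed in 1 of 21631 genes (0.00462%), and 549 genes had an unadjusted p under 0.05. This gene, AT1G64580, encodes a pentatricopeptide repeat protein. It had 24.1, 18.7 and 8.02 normalized counts in OE1 and 134, 145 and 101 in OE2, while WT had 137, 162 and 92.0. OE1 was low in every batch and OE2 lay within the range of WT. The difference of OE1 minus OE2 was -2.94 ± 0.23 (adjusted p = 0.0022), and AT1G64580 is one of the 102 genes lower for both lines together only through OE1. It overlaps AT1G64572 on the opposite strand, which makes the value uncertain. The edgeR quasi-likelihood test also called 1 gene between the lines and DESeq2 called 4. A gene called in a single line above is therefore not shown to differ between the lines.

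The authors' deposited table holds its own comparison of the overexpressors with WT. The authors' deposited table lists 1349 genes at an adjusted p under 0.05, 942 higher and 407 lower. Of the 534 genes called here 525 are among them, all 525 in the same direction. This is 98.3% of the genes called here and 38.9% of the 1349 genes the authors called. Both draw on libraries of the same series, so the overlap is no independent evidence.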

How the data were processed

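RNA of whole 14-day-old seedlings was taken up in TRIZOL, and per the labels' protocols the Lexogen SENSE kit for mRNA-Seq served for library preparation. The submitters' processing notes name the build TAIR10 and the tools HISAT2 2.1.0, HTSeq, bcl2fastq 2.17.1.14 and DESeq2, without role or order. The sources used here do not give the strand setting of the counting. The signal values are counts per gene that the authors divided by a size factor for each library with DESeq2 1.24.0, per the file headers. The authors' deposited table also holds log2 fold changes and an adjusted p-value for each comparison from the same tool, per the file headers. It lists 27782 genes, of which 1208 had no value in batches 1 to 3. Of the gene IDs 27574 matched the TAIR10.1 annotation.

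From the deposited values, log2 (normalized count + 1) was fitted with limma 3.58.1 (trend) in R 4.3.3 over 12 libraries (OE1, OE2, dne1 and WT, 3 each), with batch as a block and Benjamini-Hochberg adjustment. A gene was tested where 3 or more libraries reached a normalized count of 10, and called at an adjusted p under 0.05. Genes low in WT and dne1 could pass this filter through the overexpressors, as RLP20, RLP28, RLP43, CRK23 and SESA2 did. The labels number the batches that groups share. Same-batch libraries deviated together (r 0.137 to 0.682 over 18 pairs), while different-batch pairs had r of -0.577 to 0.219 over 36 pairs. Whole reads were recovered for 100% of values within a tolerance of 1e-06. On those reads edgeR 4.0.16 called 455 genes for both lines together and DESeq2 1.42.0 called 1105. Other filters, pseudocounts, scalings, sets of batches and the removal of each library were also tried. The procedure was tested on simulated data.

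Named genes are DNE1 and VCS, the 12 largest rises and 8 largest falls among called genes with 1 direction in all 6 same-batch pairs and a mean of at least 1 CPM, up to 4 called members of each list (otherwise its smallest p) and the gene called between the lines. Members and lists were chosen with earlier results of these data known. The lists of DNE1-like loci and berberine bridge enzyme-like proteins, and the counts of list members under other settings, were chosen after seeing the values. Shared sequence is the percent of a gene's 31-base words found in other transcripts, and more than 20% is treated as uncertain.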

Additional observations from a re-analysis of the deposited data

Results flagged for a closer look

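AT1G64580, a pentatricopeptide repeat gene, drew attention because the 2 overexpressors differed in it by a test of the difference itself. OE1 minus OE2 was -2.94 on the log2 scale (limma, adjusted p = 0.0022). It had 24.1, 18.7 and 8.02 normalized counts in OE1 and 134, 145 and 101 in OE2, while dne1 had 169, 145 and 119.9 and WT 137, 162 and 92.0. Among 57 named genes, the 6 overexpressor libraries were also examined for a single library far from the others, where chance marks about 1 group in 20, and 0 genes had one.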

How the results depend on the processing

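For both lines together, OE1 and OE2, in that order, DESeq2 called 1105, 684 and 779 genes, and a change of at least 1 on the log2 scale left 223, 152 and 150. The fit with no replicate block (batch not paired) called 79, 30 and 37. Batches 2 and 3 by themselves gave 34, 10 and 6, batches 1 and 3 gave 182, 73 and 67, and batches 1 and 2 gave 62, 8 and 45. Leaving out 1 library at a time gave 127 to 436 calls for both lines together, 37 to 309 for OE1 and 35 to 454 for OE2. For both lines together the count moved by over 1.5 times without OE1 of batch 1 (309), OE2 of batch 3 (342), and WT of batch 1 (139), batch 2 (331) or batch 3 (127). For OE1 the same held without OE1 of batch 1 (37), batch 2 (85) or batch 3 (86), OE2 of batch 3 (170) and WT of batch 1 (54), batch 2 (150) or batch 3 (62). For OE2 it held without OE1 of batch 3 (454), OE2 of batch 1 (35), batch 2 (103) or batch 3 (101) and WT of batch 1 (46) or batch 3 (53). Other filters, pseudocounts and scalings, edgeR and the 9 libraries by themselves kept all 3 counts within 1.5 times, and 0 results reversed. Between OE1 and OE2, DESeq2 called 4 genes, and limma called 0 without the block and 0 in each pair of batches, against 1 by edgeR and 549 at an unadjusted p under 0.05 with limma and the block. Of 61 called genes named, 19 kept their call without the block, 23 without WT of batch 1 and 25 without WT of batch 3. The cause was not tested.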

Other observations

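Berberine bridge enzyme-like proteins, secreted FAD-linked oxidases, were listed after their values had been seen. Of 18 tested, 5 rose and 0 fell, beside 2.00% of all genes called higher, and the median was 0.19. Against WT by itself, OE1 had 0 of them called and OE2 1. The count was 0 without the batch block, 0 without WT of batch 1 and 0 without WT of batch 3, and 1 to 3 without any other single library. AT5G44440 had 283, 159 and 154 normalized counts in OE1 and 152, 74.0 and 137 in OE2, against 54.5, 53.2 and 10.095 in WT. The groups did not overlap, and the change was 2.22 ± 0.47 (limma, adjusted p = 0.037). AT1G26380 rose by 1.62 ± 0.33, AT5G44390 by 0.88 ± 0.18, AT5G44400 by 0.58 ± 0.11 and AT1G30760 by 0.57 ± 0.13.

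Among 16 tested loci with the same annotation as DNE1, also listed after their values had been seen, 2 rose, beside 2.00% of all genes called higher. These were DNE1 itself and AT1G01355. AT1G01355 had 17.1, 17.8 and 32.1 normalized counts in OE1 and 13.1, 15.4 and 34.6 in OE2, against 1.53, 2.42 and 5.61 in WT (2.47 ± 0.30, adjusted p = 0.0033). All overexpressor libraries lay above all WT libraries.

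The 534 called genes (2.47% of those tested) included 17 pairs of neighbours on the chromosome, for which no expected count was worked out. With 432 of the 534 higher, many pairs would share a direction in any case, and 14 of the 17 did. One such pair is DNE1 and the noncoding RNA AT2G15555 next to it, which had 45.2, 38.1 and 24.1 normalized counts in OE1 and 7.05, 7.31 and 6.28 in OE2, against 0, 0 and 1.12 in WT. WT held so few reads of AT2G15555 that no fold is given.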
